A study of Mus musculus with 18 samples.

Results

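The 36 genes described here encode the enzymes and carriers of fatty acid oxidation and ketone body metabolism, and were chosen by gene symbol from the 40840 genes of 2 count tables, by a rule that uses no measured value. By role they were 20 mitochondrial genes, 10 peroxisomal genes, 2 genes of ketone body enzymes and 4 acyl-CoA thioesterase genes. All 36 had enough reads to be tested in both mouse models, among 13884 genes tested in DIO and 13433 in ob/ob livers. They took between 1.30 and 1.82% of all counts of a DIO library and between 1.27 and 1.63% of an ob/ob library.

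Liver RNA-seq came from ovariectomized female C57BL/6 mice. DIO mice (diet-induced obesity) were wild type and ate feed in which fat supplied 45% of the calories, with cholesterol added to 0.2%. The ob/ob mice, which make no functional leptin, were on a normal diet. In each model mice received PaPE-1 (300 µg/kg daily), E2 (17β-estradiol, 5 µg/kg daily) or vehicle from an osmotic minipump for 6 weeks. PaPE-1 is a synthetic estrogen of low affinity for estrogen receptor α that acts mainly through extranuclear signalling, and its dose was not that of E2. Every group therefore lacked ovaries, and genotype and diet differ together between the models and cannot be told apart. Column headers of the DIO and ob/ob libraries also carry different lane labels, so model and library handling cannot be told apart either. Each of the 6 groups has 3 libraries, 18 in all, although text in the sample records mentions sequencing of 2. Total counts were 16651616 to 21703791 per DIO library and 10470665 to 17021370 per ob/ob library. Libraries were whole liver, so fewer cells of a type and less RNA per cell cannot be told apart.

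Long-chain fatty acids are activated to acyl-CoA by acyl-CoA synthetases. They enter mitochondria through the carnitine shuttle, whose first step, by Cpt1a, is the main control point in liver. Each turn of β-oxidation uses an acyl-CoA dehydrogenase, a hydratase, a hydroxyacyl-CoA dehydrogenase and a thiolase, and passes electrons through the electron transfer flavoprotein. Peroxisomes shorten very long and branched chains, and liver turns excess acetyl-CoA into ketone bodies. Many of these genes are known targets of the nuclear receptor PPARα.

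Levels between genes were compared as RPKM, read counts scaled to gene length and library size. In vehicle DIO liver they spanned 935 ± 98.2 RPKM (SD, n = 3) for Acaa1b, a peroxisomal thiolase, down to 8.27 ± 1.18 RPKM for Acot2, a mitochondrial thioesterase. In vehicle ob/ob liver they spanned 685 ± 82.4 RPKM for Acaa1b down to 9.81 ± 0.80 RPKM for Acot4, a peroxisomal thioesterase. The same 3 genes led in both models, Acaa1b, then Scp2, a peroxisomal thiolase and sterol carrier, and Acaa2, the mitochondrial 3-ketoacyl-CoA thiolase. Scp2 stood at 559.5 ± 32.2 RPKM and Acaa2 at 539 ± 24.2 RPKM in vehicle DIO liver. In vehicle ob/ob liver the ranges of Acaa1b and Scp2 overlapped, at 594 to 755 RPKM and 576 to 724 RPKM, so their order is not beyond the spread. The ranges of Scp2 and Acaa2 overlapped in both models, at 531 to 595 and 515 to 563 RPKM in DIO liver and at 576 to 724 and 567 to 638 RPKM in ob/ob liver.

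PPARα binds with its partner RXR to a direct repeat of the half-site AGGTCA, and estrogen receptors bind an inverted repeat of it. Sequences from 250 bases before to 50 bases after the start site were taken from RefSeq (GRCm38.p6, a different build from that of the counts) for 31 of the 36 genes, with 35 promoters in all. No promoter of these genes held AGGTCANAGGTCA, which 0.0396% of all 32851 promoters of that length held on either strand. None held GGTCANNNTGACC either, which 0.07% of all promoters held. The half-site AGGTCA, on either strand, was found in 8 of the 35 promoters (22.9%) and in 16.3% of all promoters. It lies within both longer repeats in whole or in part, and a match describes letters only. The 8 promoters belong to 7 genes, whose changes with E2 in ob/ob liver differed. Cpt1a and Acadm were lower, Acot3 was higher, and Scp2, Acadvl, Echs1 and Acot4 did not pass. The windows below show 2 that were lower, Scp2, which differed between the ligands, and Acadvl and Echs1, which did not pass in either comparison. The half-site is in capitals, and TGACCT is the same half-site on the other strand.
Cpt1a, chr19:3323182-3323237, plus strand: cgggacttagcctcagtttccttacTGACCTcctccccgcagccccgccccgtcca
Acadm, chr3:153944862-153944893, minus strand: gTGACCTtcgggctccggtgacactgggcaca
Scp2, chr4:108118626-108118681, minus strand: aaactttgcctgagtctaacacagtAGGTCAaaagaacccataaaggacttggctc
Acadvl, chr11:70015485-70015540, minus strand: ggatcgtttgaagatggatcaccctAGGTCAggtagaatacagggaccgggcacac
Echs1, chr7:140116474-140116529, minus strand: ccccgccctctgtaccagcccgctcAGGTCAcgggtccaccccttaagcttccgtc

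In ob/ob liver, 8 of the 36 genes were lower and 3 were higher with E2 than with vehicle. The 8 lower genes were Cpt1a, Slc25a20, Acadm, Hadhb and Etfdh of mitochondria and Ehhadh, Hsd17b4 and Pex11a of peroxisomes. The 3 higher genes were Eci1, Etfb and Acot3. Genes were called at a Benjamini-Hochberg adjusted p under 0.05 in edgeR's quasi-likelihood test. By this rule 12.3% of all genes tested were lower with E2 and 9.81% were higher. The median log2 fold change was −0.22 over the 36 genes and 0.01 over all genes tested.

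Cpt1a, the carnitine palmitoyltransferase of the outer mitochondrial membrane, had 279, 264 and 357 CPM (read counts scaled to library size) in the E2 livers and 473, 499 and 514 CPM in the vehicle livers. Every E2 library lay below every vehicle library. The log2 fold change was −0.72 ± 0.15 (SE), with an adjusted p of 0.00715 in edgeR. Cpt1a, on chromosome 19 from 3372328 to 3435735 (GRCm39, plus strand), was the only one of the 11 called genes to keep its call whichever of the 9 libraries was left out. Slc25a20, the carnitine-acylcarnitine carrier of the inner membrane, had 157, 127 and 143 CPM with E2 and 167, 193 and 204 CPM with vehicle. These groups did not overlap, with a log2 fold change of −0.40 ± 0.12 and an adjusted p of 0.0308 in edgeR. Cpt2, which reverses the Cpt1 step inside mitochondria, did not pass (log2 fold change −0.23 ± 0.12, adjusted p = 0.185 in edgeR).

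Among genes of the β-oxidation cycle, Hadhb, the thiolase subunit of the trifunctional protein, had 129, 113 and 130.0 CPM in the E2 livers and 166, 185 and 186 CPM in the vehicle livers. The highest E2 library was below the lowest vehicle library. The log2 fold change was −0.53 ± 0.11 with an adjusted p of 0.00860 in edgeR. Its partner subunit Hadha did not pass, at −0.26 ± 0.12 on the log2 scale with edgeR's adjusted p at 0.118. Acadm, the medium-chain acyl-CoA dehydrogenase, had 322, 231 and 277 CPM with E2 and 368, 409 and 446 CPM with vehicle. Its groups stood apart too, and its log2 fold change was −0.56 ± 0.14 (adjusted p = 0.0155, edgeR). The very-long-chain and short-chain dehydrogenases Acadvl and Acads had log2 fold changes of 0.00 and 0.07, neither of which passed.

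Eci1, the mitochondrial enoyl-CoA isomerase for unsaturated fatty acids, went the other way. It had 200.2, 202 and 198 CPM in the E2 livers and 161, 141 and 152 CPM in the vehicle livers. All E2 values were above all vehicle values, with a log2 fold change of 0.40 ± 0.11 (adjusted p = 0.0219, edgeR).

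The 3 genes of electron transfer from the acyl-CoA dehydrogenases split. Etfdh, the ubiquinone oxidoreductase, had 271, 234 and 255 CPM with E2 and 328, 290.1 and 372 CPM with vehicle. Etfb, the β subunit of the electron transfer flavoprotein, had 412, 386 and 370.2 CPM with E2 and 271, 299 and 316 CPM with vehicle. Neither pair of groups overlapped. The log2 fold change was −0.38 ± 0.12 for Etfdh (adjusted p = 0.0413, edgeR) and 0.40 ± 0.14 for Etfb (adjusted p = 0.0483, edgeR). Etfa, the α subunit, did not pass, at 0.14 ± 0.13.

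Of the 10 peroxisomal genes, 3 were lower with E2 in ob/ob liver and none was higher. Ehhadh, the peroxisomal bifunctional hydratase and dehydrogenase, had 353, 323 and 410.1 CPM in the E2 livers and 530.1, 401 and 734 CPM in the vehicle livers. The groups overlapped, since vehicle replicate 2 was below E2 replicate 3. The log2 fold change of Ehhadh was −0.62 ± 0.18 (adjusted p = 0.0285, edgeR). Pex11a, a peroxisome division protein, had 129, 96.1 and 152 CPM with E2 and 187, 182 and 259 CPM with vehicle. Its groups stood apart, with a log2 fold change of −0.73 ± 0.22 (adjusted p = 0.0329, edgeR). Hsd17b4, the other bifunctional enzyme, had 416, 409 and 432 CPM with E2 and 550.2, 500.3 and 619 CPM with vehicle. These groups were apart as well, at −0.41 ± 0.13 on the log2 scale (adjusted p = 0.0345, edgeR). Scp2 and Abcd3, the transporter of branched-chain acyl-CoA, had adjusted p of 0.0650 and 0.0674 in edgeR at log2 fold changes of −0.39 and −0.40. The peroxisomal thiolases Acaa1a and Acaa1b had log2 fold changes of −0.00 and 0.06.

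The ketone body enzymes did not pass. Bdh1, which interconverts acetoacetate and β-hydroxybutyrate, had 329, 319 and 318 CPM with E2 and 306, 298 and 317 CPM with vehicle, a log2 fold change of 0.07 ± 0.12. Acat1, the acetoacetyl-CoA thiolase, stood at 0.27 ± 0.12 on the log2 scale (adjusted p = 0.112, edgeR).

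Among the thioesterases, which release free fatty acids from acyl-CoA, Acot3 had 80.0, 71.3 and 106 CPM in the E2 livers and 43.6, 43.0 and 59.8 CPM in the vehicle livers. The groups did not overlap, and the log2 fold change was 0.81 ± 0.26, with an adjusted p of 0.0499 in edgeR, at the edge of the threshold. Acot1, a cytosolic thioesterase, had 20.2, 16.2 and 27.0 CPM with E2 and 12.1, 22.8 and 38.9 CPM with vehicle. These overlapped, with a log2 fold change of −0.23 ± 0.39. Parts of these genes are alike: 9.32% of the 100-base words of Acot1 transcripts also occur in Acot2, and 17.1% of those of Acot2 occur in Acot1. The same share was 35.8% for Etfb with the predicted gene Gm45233 and 19.3% for Acaa1b with Acaa1a. It was 21.8% for Scp2 with Scp2-ps2, 14.8% for Hadhb with Gm13910, 9.53% for Acot3 with Gm49366 and 7.21% for Acaa1a with Acaa1b, so how reads were split among these genes is uncertain.

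**Figure D1:**
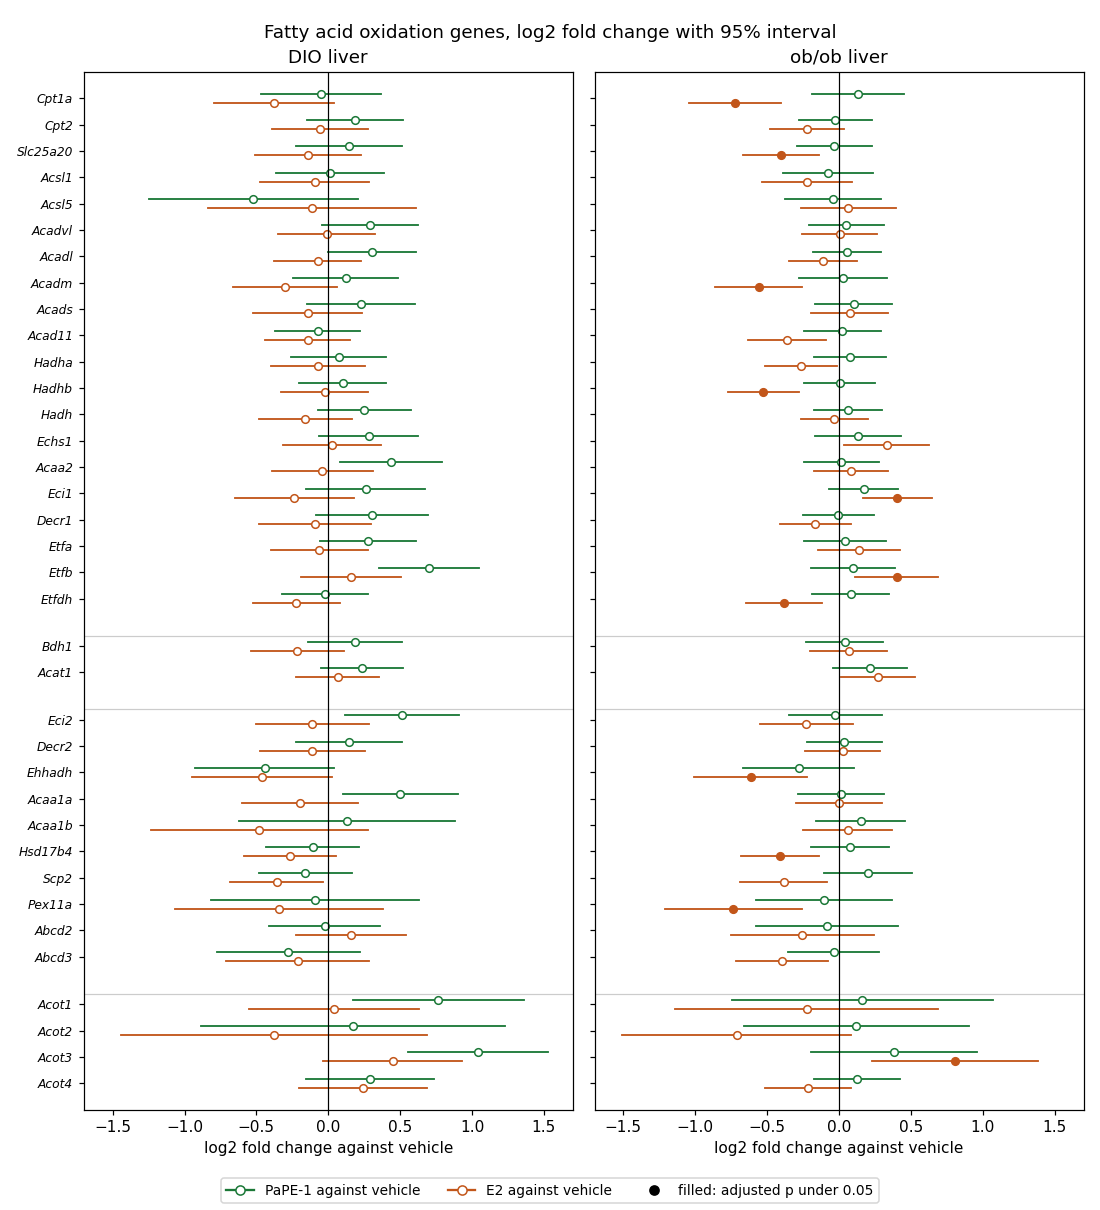
Log2 fold change against vehicle (x axis) with its 95% interval for each of the 36 genes (rows), with PaPE-1 in green and E2 in orange, in DIO liver on the left and ob/ob liver on the right. Rows run from mitochondrial through ketone body and peroxisomal to thioesterase genes, and filled points passed an adjusted p of 0.05: 11 points, all of E2 in ob/ob liver.

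**Figure D2:**
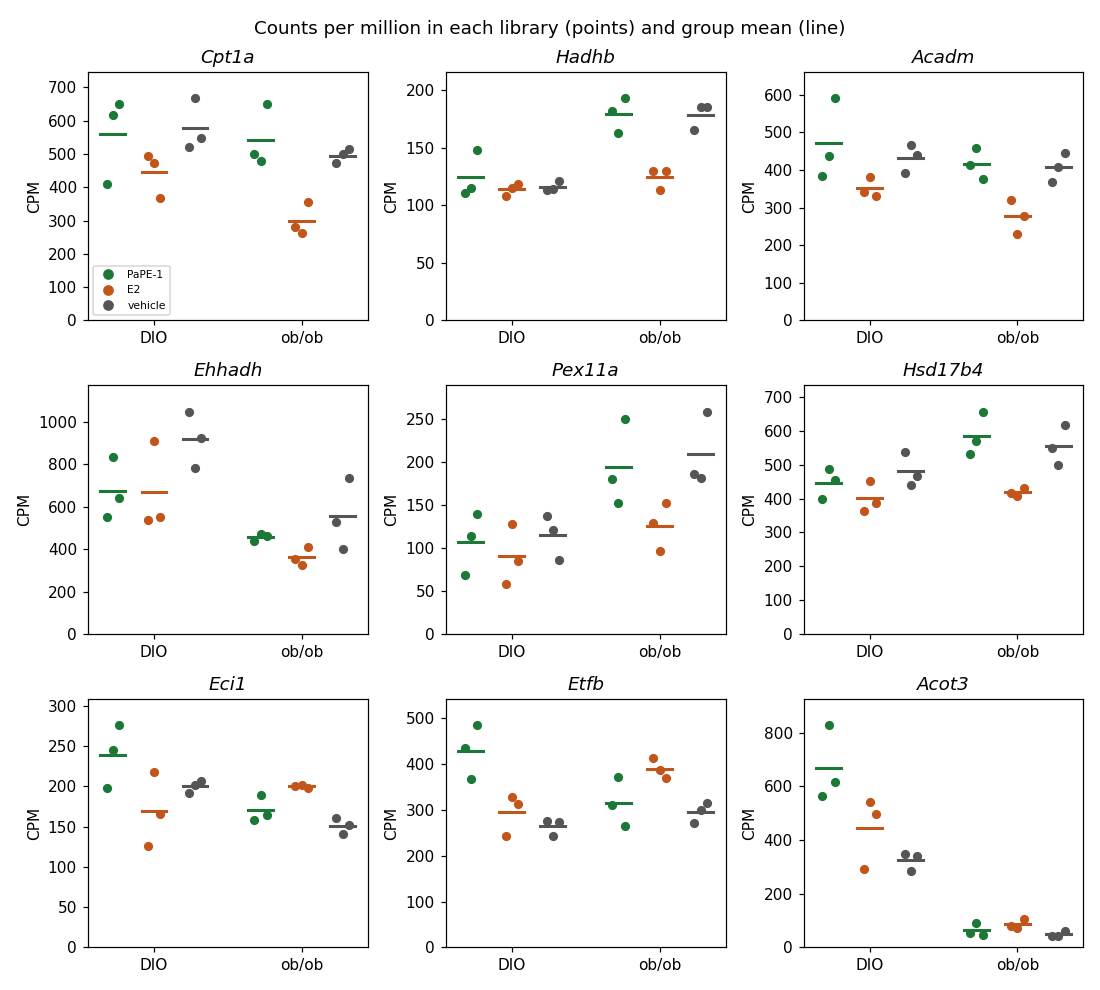
CPM (y axis, from 0) of 9 genes in every library (points) with the group mean (line), for PaPE-1, E2 and vehicle in DIO and ob/ob liver. In ob/ob liver the E2 points of Cpt1a lie at 264 to 357 CPM, below the vehicle points at 473 to 514 CPM, while those of Eci1, Etfb and Acot3 lie above vehicle.

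Other measures moved with E2 in ob/ob liver. The summed level of 12 endothelial marker genes was 398 to 491 CPM with E2 and 242 to 269 CPM with vehicle, and 11 of the 12 were called higher. The sum of 8 neutrophil and myeloid precursor markers was 93.1 to 359.7 CPM with E2 and 5.97 to 7.24 CPM with vehicle, with 7 of 8 called higher. For 8 macrophage markers it was 448 to 621 CPM with E2 and 287 to 388 CPM with vehicle, with 4 of 8 called higher. The 15 hepatocyte markers summed to 187169 to 205963 CPM with E2 and 120535 to 153851 CPM with vehicle, with 7 higher and 1 lower. The 4 mitotic markers summed to 15.8 to 17.3 CPM with E2 and 26.4 to 48.4 CPM with vehicle, with 3 of 4 called lower. The 4 lymphocyte markers summed to 4.09 to 5.32 CPM with E2 and 0.26 to 3.44 CPM with vehicle, with 1 of 3 tested called higher. No marker gene of these 6 lists was at 0 in a whole group. Their part in the result was not tested.

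Log2 fold changes also fell with gene length, by a Spearman rho of −0.32 over the 13433 genes and −0.24 over the 36, a description across genes, which share their libraries and are not replicates. The 3 genes called higher were 904, 1091 and 3436 bases long, and the 8 called lower were 1746 to 5922 bases long. With the trend on length removed from each library, the 8 lower genes were again called lower and 0 were called higher. Of all genes, 1403 were lower and 1008 higher in that fit. The calls leaned on single libraries as well, as did those of all genes, at 1654 lower and 1318 higher with every library in. Without E2 replicate 2, 1 of the 36 was called lower and 0 higher, where 434 of all genes were lower and 344 higher. Without vehicle replicate 3, 2 were called lower and 1 higher, where 1017 of all genes were lower and 708 higher. Without E2 replicate 3, 4 were lower and 0 higher, where 812 of all genes were lower and 634 higher. Without vehicle replicate 1, 5 were lower and 1 higher, where 1194 of all genes were lower and 967 higher. The count of higher genes among the 36 was 1 without E2 replicate 1 or PaPE-1 replicate 1 and 0 without vehicle replicate 2. These fits called 1365, 1216 and 829 of all genes higher, in that order.

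**Figure D3:**
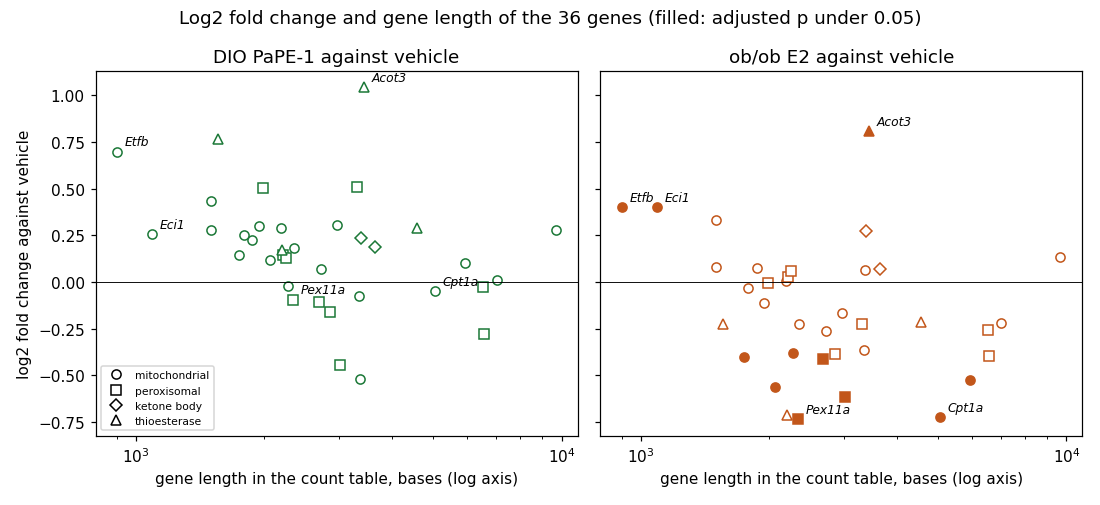
Log2 fold change against vehicle (y axis) and gene length in bases (x axis, log scale) of the 36 genes, for PaPE-1 in DIO liver and E2 in ob/ob liver, with 1 symbol per class and filled points past an adjusted p of 0.05. Spearman rho is −0.41 on the left and −0.24 on the right.

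PaPE-1 in ob/ob liver called 0 of the 36 genes relative to vehicle, and 0 of all 13433 genes (0% higher and 0% lower). In edgeR, 0 of the 36 had an unadjusted p under 0.05, where 0.998% of all genes were higher and 1.65% lower, and DESeq2 called 0 at an adjusted p. The median log2 fold change was 0.05 over the 36 genes and −0.00 over all. The smallest p belonged to Acat1, with 721, 727 and 688 CPM in the PaPE-1 livers and 675, 599.8 and 562 CPM in the vehicle livers. The groups did not overlap, with a log2 fold change of 0.22 ± 0.12 (unadjusted p = 0.0906, edgeR).

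The other genes named for this comparison overlapped between PaPE-1 and vehicle. Cpt1a had 499, 479 and 651 CPM with PaPE-1 in ob/ob liver, set against the vehicle values given above, a log2 fold change of 0.13 ± 0.15. The interval of that difference ran from −0.19 to 0.45. Ehhadh had 437, 469.6 and 464 CPM with PaPE-1, within the range of its vehicle livers (log2 fold change −0.28 ± 0.18). Eci1, Acot3, Etfb, Acot1 and Bdh1 had log2 fold changes of 0.17, 0.38, 0.10, 0.16 and 0.04. The 6 erythroid markers summed to 378 to 2664 CPM with PaPE-1 and 272 to 512 CPM with vehicle, which overlapped. The 4 mitotic markers stood apart, at 12.7 to 24.0 CPM with PaPE-1 and 26.4 to 48.4 CPM with vehicle. At an unadjusted p under 0.05, 5 of 5 tested erythroid markers were higher. By the same rule 4 of 4 mitotic, 1 of 12 endothelial and 1 of 5 cholangiocyte markers were lower. None passed at an adjusted p in edgeR. Their part in the result was not tested.

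Set directly against E2 in ob/ob liver, PaPE-1 livers were higher in 7 of the 36 genes and lower in 0. These doses differ, at 300 and 5 µg per kg per day. Over all genes, PaPE-1 livers were higher in 10% and lower in 7.45%. The median log2 fold change over the 36 was 0.17, against −0.01 over all genes. The 7 were Cpt1a (0.86 ± 0.15, adjusted p = 0.00481, edgeR), Hadhb (0.53), Acadm (0.59), Scp2 (0.59), Hsd17b4 (0.48), Etfdh (0.46) and Acad11 (0.39), a long-chain acyl-CoA dehydrogenase. Markers moved here too, with 12 of 12 endothelial, 7 of 15 hepatocyte, 4 of 8 neutrophil, 3 of 8 macrophage and 2 of 3 tested lymphocyte markers called lower with PaPE-1 than with E2, and 1 of 5 tested erythroid markers called higher. Their part in the result was not tested. Both comparisons use the same E2 libraries, so these values are not separate evidence of the E2 values above.

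Scp2 had 1869, 2147 and 2369.7 CPM in the PaPE-1 livers and 1565, 1355 and 1333 CPM in the E2 livers. Acad11 had 358, 369 and 406 CPM with PaPE-1 and 283, 285 and 299 CPM with E2. The groups were apart for both genes. Cpt1a kept its call whichever library was left out. The count of higher genes in the set was 1 without E2 replicate 2, 2 without E2 replicate 3 and 3 without PaPE-1 replicate 3. In the set, 2 genes were lower without PaPE-1 replicate 2. Calls over all genes tested, 1343 higher and 1001 lower with every library in, changed in these fits too. They were 292 higher and 199 lower without E2 replicate 2, and 632 higher and 445 lower without E2 replicate 3. Without PaPE-1 replicate 3 they were 569 higher and 348 lower, and without PaPE-1 replicate 2 they were 1384 higher and 968 lower.

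In DIO liver, PaPE-1 called 0 of the 36 genes against vehicle, as it called 0 of all 13884 genes (0% higher and 0% lower). Without adjustment, at p under 0.05, 6 of the 36 were higher and 0 were lower, where 11.4% of all genes were higher and 9.68% lower. The 6 were Acot3, Etfb, Eci2, Acot1, Acaa1a and Acaa2. The median log2 fold change was 0.18 over the 36, −0.03 over all genes, 0.21 over the 20 mitochondrial genes, −0.06 over the 10 peroxisomal genes and 0.53 over the 4 thioesterases.

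Acot3 had 563, 827 and 617 CPM in the PaPE-1 livers and 347, 285 and 342 CPM in the vehicle livers. Every PaPE-1 library was above every vehicle library. The log2 fold change was 1.04 ± 0.22, with an adjusted p of 0.0707 in edgeR. Etfb had 436, 366 and 484 CPM with PaPE-1 and 275, 242 and 274 CPM with vehicle. These groups were also apart, and the log2 fold change was 0.70 ± 0.16 with an adjusted p of 0.0714 in edgeR. Acot3 and Etfb were the 2 genes that DESeq2, a fit to the 2 compared groups alone and a fit with no filter on low counts each called higher. Those settings called 530, 467 and 250 of all genes higher and 222, 306 and 135 lower, in that order. Acot3 and Etfb were also the 2 called without E2 replicate 1, where 387 genes were higher and 224 lower, and without E2 replicate 2, where 123 were higher and 70 lower. Without PaPE-1 replicate 2, 129 genes were higher and 24 lower, with 0 of the 36 among them.

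Eci2, an enoyl-CoA isomerase found in peroxisomes and mitochondria, had 269.6, 292 and 372 CPM with PaPE-1 and 197, 245 and 213 CPM with vehicle. The groups did not overlap, and the log2 fold change was 0.51 ± 0.18 (adjusted p = 0.146, edgeR). Acot1 had 46.3, 67.9 and 102 CPM with PaPE-1 and 43.4, 48.8 and 34.6 CPM with vehicle. Here PaPE-1 replicate 1 lay below vehicle replicate 2, and the log2 fold change was 0.77 ± 0.27 (adjusted p = 0.150, edgeR). Cpt1a had 411, 616 and 650 CPM with PaPE-1 and 521, 667 and 548 CPM with vehicle, a log2 fold change of −0.05 ± 0.19. Ehhadh had 551, 835 and 641 CPM with PaPE-1 and 1047, 785 and 925 CPM with vehicle. Both genes overlapped between groups, and the Ehhadh log2 fold change was −0.44 ± 0.22 (adjusted p = 0.274, edgeR). Bdh1 had 437, 388 and 454 CPM with PaPE-1 and 384, 357 and 384 CPM with vehicle, a log2 fold change of 0.19 ± 0.15.

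Gene length moved with this comparison more than with the others against vehicle, at a Spearman rho of −0.52 over all 13884 genes and −0.41 over the 36. With the length trend removed, 0 of the 36 were called and 6 were higher at an unadjusted p under 0.05. The 15 hepatocyte markers summed to 151858 to 184021 CPM with PaPE-1 and 118504 to 128620 CPM with vehicle. Stellate cell and fibroblast markers summed to 320.2 to 377 CPM with PaPE-1 and 424 to 493 CPM with vehicle. Mitotic markers summed to 2.57 to 4.18 CPM with PaPE-1 and 7.12 to 8.57 CPM with vehicle. Of the adipocyte markers only Cfd was tested, at 3.64, 7.29 and 8.98 CPM with PaPE-1 and 11.5, 13.4 and 9.70 CPM with vehicle. Plin1 had 0 CPM in every DIO library and Adipoq at most 0.0675 CPM. At an unadjusted p under 0.05, 8 of 15 hepatocyte markers were higher, 1 of 8 stellate markers was higher and 4 lower, and 3 of 3 tested mitotic markers were lower, with 0 called at an adjusted p in edgeR. Their part in the result was not tested.

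E2 in DIO liver also called 0 of the 36, with 0% of all genes higher and 0% lower. Without adjustment, at p under 0.05, 0 were higher and 1 was lower, where 2.72% of all genes were higher and 2.5% lower. That gene was Scp2, with 1069.9, 1471 and 1195 CPM in the E2 livers and 1698, 1577 and 1517 CPM in the vehicle livers. The groups were apart, with a log2 fold change of −0.36 ± 0.15 and an adjusted p of 0.936 in edgeR. DESeq2 called 0 of the 36 as well, and 18 higher and 5 lower of all genes. The log2 fold change was below 0 for 29 of the 36 genes and for 6746 of all 13884 genes. The median was −0.11 over the 36 against 0.01 over all genes.

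The 3 E2 livers of DIO mice were spread wide. Acaa1b had 804, 2331 and 1397 CPM in them, and 2347, 1913 and 2059 CPM in the vehicle livers. Cpt1a had 495, 473 and 367 CPM with E2, below all vehicle libraries, but with a log2 fold change of −0.38 ± 0.19 (unadjusted p = 0.0722, edgeR). Ehhadh, at 539, 911 and 551 CPM with E2, overlapped vehicle, at a log2 fold change of −0.46 ± 0.22. For Acot3, Etfb, Acot1 and Bdh1 the log2 fold changes were 0.45, 0.16, 0.04 and −0.22. Without E2 replicate 2, 1 gene, Acot2, was called lower, among 66 lower and 67 higher of all genes. Macrophage markers summed to 536 to 744 CPM with E2 and 367 to 480.2 CPM with vehicle, and 6 of 8 were higher at an unadjusted p under 0.05. Hepatocyte markers summed to 141331 to 171475 CPM with E2 and 118504 to 128620 CPM with vehicle, and 4 of 15 were higher by the same rule. Stellate cell and fibroblast markers summed to 395 to 409 CPM with E2 and 424 to 493 CPM with vehicle. Yet 5 of these 8 had a log2 fold change above 0 and 3 below. At an unadjusted p under 0.05, 0 of the 8 were higher and 2 were lower. The adipocyte marker Cfd had 0.090, 3.20 and 0.051 CPM with E2 and 11.5, 13.4 and 9.70 CPM with vehicle. Plin1 and Adipoq, also listed as adipocyte markers, had too few reads to be tested. No marker was called at an adjusted p in edgeR. Their part in the result was not tested.

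PaPE-1 against E2 in DIO liver called 0 of the 36, where 0.0216% of all genes were higher and 0.0144% lower. Without adjustment, at p under 0.05, 13 were higher and 0 lower, where 8.41% of all genes were higher and 8.62% lower. The 13 were Acaa1a, Eci2, Etfb, Acaa2, Hadh, Bdh1, Acadl, Acot3, Acot1, Eci1, Acadm, Decr1 and Etfa. Of these, Acaa1a had the smallest p, with 182, 209 and 249 CPM in the PaPE-1 livers and 99.7, 162 and 133 CPM in the E2 livers. The groups were apart, at a log2 fold change of 0.70 ± 0.19 (adjusted p = 0.175, edgeR). The median over the 36 was 0.29, against −0.02 over all genes. Spearman rho with gene length was −0.56 over the 36 and −0.44 over all 13884 genes. Without E2 replicate 2, 6 of the 36 were called higher, among 361 higher and 435 lower of all genes. DESeq2 called Acaa1a, among 124 higher and 108 lower. Of the markers, 1 of 3 tested mitotic genes was called lower with PaPE-1 than with E2. At an unadjusted p under 0.05, 2 of 3 mitotic, 5 of 12 endothelial, 3 of 8 macrophage and 3 of 8 stellate markers were lower. By the same rule 3 of 15 hepatocyte, 1 of 5 tested erythroid and 1 of 1 tested adipocyte markers were higher. Their part in the result was not tested.

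A score was formed as the mean log2 CPM of a class minus the vehicle mean of its model, and is given with no test. Over the 36 genes it was −0.03, 0.23 and 0.29 in the PaPE-1 livers of DIO mice, −0.39, 0.10 and −0.14 in the E2 livers, and 0.08, −0.03 and −0.05 in the vehicle livers. All 3 DIO groups overlapped. In ob/ob mice it was −0.01, 0.10 and 0.07 with PaPE-1, −0.11, −0.24 and −0.09 with E2, and −0.04, −0.09 and 0.13 with vehicle. There E2 was below PaPE-1 in every library and overlapped vehicle.

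By class, the ob/ob E2 score was −0.12 ± 0.06 for mitochondrial genes, −0.29 ± 0.11 for peroxisomal genes and 0.17 ± 0.05 for ketone body genes (SD, n = 3). The ob/ob PaPE-1 scores of these classes were 0.04 ± 0.04, 0.00 ± 0.06 and 0.12 ± 0.11. In DIO liver the PaPE-1 scores were 0.16 ± 0.14, 0.01 ± 0.22 and 0.21 ± 0.10, and the E2 scores −0.12 ± 0.19, −0.26 ± 0.30 and −0.08 ± 0.15. Thioesterases had 0.55 ± 0.29 with PaPE-1 and 0.02 ± 0.46 with E2 in DIO liver.

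**Figure D4:**
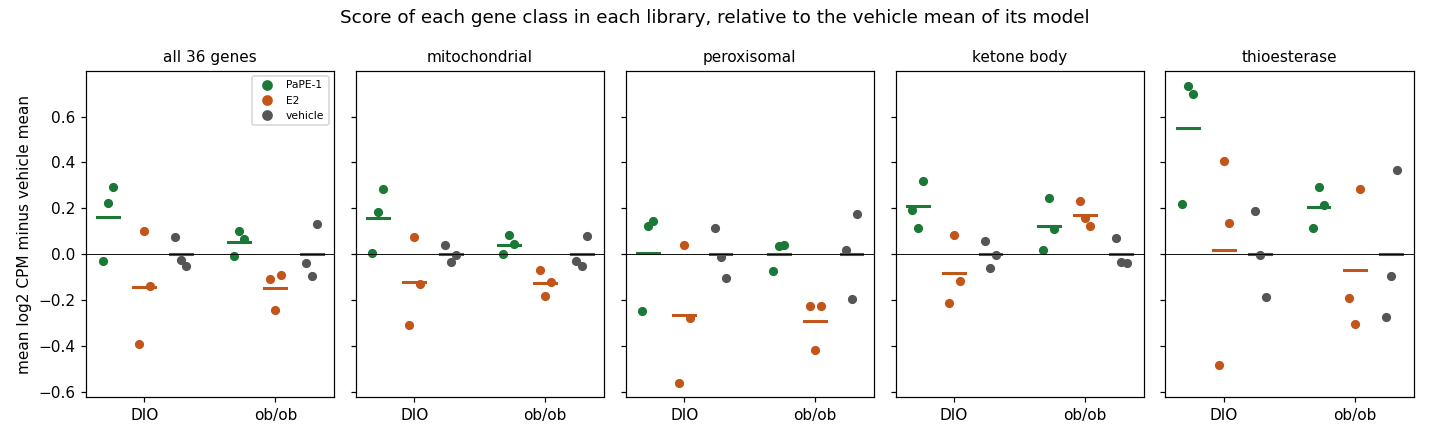
Mean log2 CPM of each class minus the vehicle mean of its model (y axis) in each library (points) with group means (lines), for PaPE-1, E2 and vehicle in DIO and ob/ob liver. In ob/ob liver the 3 E2 libraries of the mitochondrial class lie at −0.18 to −0.07, below the 3 vehicle libraries, while in DIO liver the E2 points spread from −0.31 to 0.08.

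Whether a ligand acted differently in the models was tested as an interaction over the 18 libraries. For PaPE-1, 0 of the 36 passed, with 0% of 14171 genes called, and for E2 0 of the 36 passed, with 0.0141% called. At an unadjusted p under 0.05, 3 of the 36 passed for PaPE-1, where 12.1% of all genes passed, and 2 for E2, where 16.9% passed. The 3 were Etfb, Eci2 and Acaa2, and the 2 were Hadhb and Eci1. The PaPE-1 effect on Etfb was 0.62 ± 0.21 higher in DIO than in ob/ob liver on the log2 scale (adjusted p = 0.286, edgeR). For E2 the difference was 0.51 ± 0.17 for Hadhb and −0.62 ± 0.23 for Eci1 (adjusted p = 0.156 and 0.180, edgeR). Without E2 replicate 2 of the DIO mice, Eci1 passed the test for E2, where 533 of all genes were called higher and 298 lower. DESeq2 called 0 of the 36 in both tests. Of all genes, it called 145 higher and 14 lower for PaPE-1 and 225 higher and 113 lower for E2.

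Related genes outside the 36 were counted in the same tests. With E2 in ob/ob liver, 12.3% of all genes tested were lower than with vehicle and 9.81% were higher, with a median log2 fold change of 0.01. These shares apply to each list below. Of 19 genes of PPARα, its partners and its targets, 5 were lower and 0 were higher, with a median log2 fold change of −0.33. Aldh3a2, a fatty aldehyde dehydrogenase, had 365, 369 and 422 CPM with E2 and 598, 663 and 695 CPM with vehicle. Cd36, which takes up fatty acids, had 294, 225 and 269 CPM with E2 and 394, 456 and 468 CPM with vehicle. The groups were apart for both genes, at log2 fold changes of −0.76 and −0.74. Ppargc1b, a coactivator of mitochondrial genes, was lower at −0.67 ± 0.17 (adjusted p = 0.0141, edgeR), while Ppara itself did not pass (−0.39 ± 0.17, adjusted p = 0.119, edgeR).

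Of the 4 other lists, all but the ketone body genes held calls in both directions. A list of genes linked to mitochondrial oxidation, not all of them mitochondrial, had 15 further genes tested. With E2 in ob/ob liver 1 of the 15 was higher and 1 lower. Acsl4, an acyl-CoA synthetase that prefers arachidonic acid, had 49.7, 40.6 and 46.2 CPM with E2 and 104, 90.9 and 81.3 CPM with vehicle, a log2 fold change of −1.02 ± 0.12 (adjusted p = 0.00107, edgeR). Of 14 further genes linked to peroxisomal oxidation, not all of them peroxisomal, 3 were higher and 2 lower. Hacl1, the lyase of α-oxidation, had 318, 336 and 273 CPM with E2 and 149, 121 and 148 CPM with vehicle. Its groups were apart, at a log2 fold change of 1.15 ± 0.22 (adjusted p = 0.00681, edgeR). Acot12, an acetyl-CoA thioesterase, was lower at −0.57 and Nudt7, a peroxisomal CoA diphosphatase, higher at 0.58. Of 14 peroxins, 2 were higher (Pex6 and Pex16) and 1 lower (Pex19). Of 6 further ketone body genes, 1 was lower, Slc16a1, a carrier of lactate and ketone bodies (log2 fold change −0.47).

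PaPE-1 against E2 in ob/ob liver called 10% of all genes higher and 7.45% lower. Of the 19 PPARα genes 3 were higher and 0 lower, the 3 being Aldh3a2 (0.93), Cd36 (0.70) and the coactivator Ppargc1a (0.72). In the same comparison Acsl4 was higher at 0.87, and of the 14 genes linked to peroxisomal oxidation 2 were higher and 2 lower. Of 14 peroxins 1, Pex16, was lower (−0.39). None of the 6 further ketone body genes was called. None of these 5 lists had a gene called by edgeR at an adjusted p under 0.05 in the other comparisons. At an unadjusted p under 0.05, PaPE-1 in DIO liver had 11.4% of all genes higher and 9.68% lower against vehicle. The 15 genes linked to mitochondrial oxidation had 4 higher and 1 lower, and the 14 linked to peroxisomal oxidation 4 higher and 0 lower. The peroxins had 2 higher and 0 lower, the ketone body genes 1 higher and 2 lower, and the PPARα genes 0 higher and 2 lower. By the same rule, E2 in DIO liver had 0 PPARα genes higher and 4 lower than vehicle. The 4 remaining lists had 0 in either direction, where 2.72% of all genes were higher and 2.5% lower. PaPE-1 against E2 in DIO liver had 5 PPARα genes higher and 1 lower, and 8.41% of all genes higher and 8.62% lower. There the ketone body genes had 3 higher and 2 lower, and those linked to peroxisomal oxidation 3 and 0. Genes linked to mitochondrial oxidation had 2 higher and 1 lower, and peroxins 0.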

How the data were processed

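Poly-A RNA libraries of liver were stranded. Per the submitters' processing notes, the authors aligned reads with STAR 2.7.6a. Per the file headers, they counted reads per gene by strand with featureCounts on RefSeq annotation of GRCm39. The study's methods instead name TopHat and StrandNGS, and the deposited counts are described here by their own headers. The deposited values are raw counts per gene with the gene length, in 1 table per model. The deposited fold changes and p-values of the authors' own comparisons were not used. Groups came from the sample labels. The rule for the 36 genes uses symbols only, but the set, the related lists and the tests were chosen with earlier results of these data known.

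Each model's 9 libraries were fitted together in edgeR 4.0.16 (R 4.3.3): filterByExpr, TMM scaling, robust quasi-likelihood test, Benjamini-Hochberg adjustment over all genes tested, calls at an adjusted p under 0.05. Interactions were fitted over all 18 libraries. An exact test of 3 against 3 libraries cannot go below p = 0.1, so p-values come from the fit across genes. They set the group difference against a spread between these libraries that is estimated with help from other genes. CPM used the TMM library size, and log2 CPM a prior count of 2. SE and intervals are of the log2 fold change. The genes named are, for each comparison with vehicle, the called members with the smallest p (the first 4 members by p where fewer than 4 passed), always Cpt1a, Ehhadh, Acot1, Bdh1 and Etfb, and up to 3 genes of each related list. Others were named after their values were seen. The test was tried on simulated data. Alternatives were DESeq2 1.42.0, its size factors in edgeR, no count filter, the compared groups only, a fold rule, a length trend removed by loess, and each library left out.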

Additional observations from a re-analysis of the deposited data

How the results depend on the processing

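No paired analysis was possible because the library numbers in the labels are not shared between groups. With DESeq2's size factors in edgeR, the ob/ob calls with E2 stayed at 3 higher and 8 lower. In ob/ob liver DESeq2's own test gave 13 lower with E2 than with vehicle, among 1772 lower and 1329 higher of all genes. It gave 11 higher with PaPE-1 than with E2, among 1477 higher and 1037 lower of all genes. In DIO liver it gave 2 higher with PaPE-1 than with vehicle and 1 higher with PaPE-1 than with E2. With no filter on low counts, 1 gene was higher with E2 in ob/ob liver and 2 with PaPE-1 in DIO liver, where a fit to the compared groups also gave 2. A rule of more than 2-fold with p under 0.05 before adjustment gave 1 gene higher with PaPE-1 in DIO liver. Of all genes, 79 were higher and 219 lower there. The same rule left 0 higher and 0 lower with E2, and 0 higher with PaPE-1 than with E2, in ob/ob liver. Of all genes, 475 were higher and 350 lower with E2, and 277 were higher with PaPE-1 than with E2. With the length trend removed, 0 were higher with E2 in ob/ob liver. In DIO liver the log2 fold change of Cpt1a with PaPE-1 became 0.12 and that of Acot1 with E2 became −0.00751. The cause was not tested.

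With each library left out, counts in ob/ob liver ran from 0 to 3 higher and 1 to 9 lower with E2, with a median log2 fold change of −0.23 to −0.082, and from 1 to 9 higher and 0 to 2 lower with PaPE-1 than with E2. In DIO liver they ran from 0 to 2 higher with PaPE-1, 0 to 1 lower with E2 and 0 to 6 higher with PaPE-1 than with E2, and the E2 interaction from 0 to 1. Directions that changed had log2 fold changes from −0.17 to 0.13 (Cpt1a) with PaPE-1 and from −0.11 to 0.21 (Acot1) with E2 in DIO liver. In ob/ob liver they ran with PaPE-1 from −0.066 to 0.15 (Bdh1), −0.034 to 0.21 (Etfb), −0.017 to 0.22 (Cpt1a) and −0.17 to 0.68 (Acot1), and with E2 from −0.56 to 0.29 (Acot1). Leaving out a library leaves 2 in its group, so fewer samples enter those fits.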
